A study of Mus musculus with 29 samples.

Results

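This section compares 2 inhibitor media at one passage: mouse embryonic stem cells (ESCs) in PKCi/L against ESCs in a2i/L, both at passage 20 (p20). The members are 4 of the 29 libraries of the series, chosen by their titles: J-34 and J-35 with a2i/L, and J-34 and J-35 with PKCi/L. J-34 and J-35 are ESC lines labelled male. Cells of each line entered the medium at passage 4 and spent 16 passages in it. One library per line and medium was made, so the replicates of a medium are 2 lines, each grown once. The labels give no genotype beyond the line names and no composition for either medium. In this field, L stands for LIF, a2i (alternative 2i) for a Gsk3 inhibitor with an inhibitor of Src-family kinases, and PKCi for an inhibitor of protein kinase C. Single libraries at passage 10 (p10, 6 passages in the medium) served as a check, from J-34 with a2i/L and J-35 with PKCi/L. The other ESC libraries used for reference came from cells in serum medium with LIF (S/L), in 2i/L, or in 2i/L for 16 passages followed by S/L up to passage 23 or 30 (p23, p30), with J-37 as a further male line. One p30 library is titled J-35 but has J-34 in its cell type label.

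In mammals most DNA methylation sits on the cytosine of CpG dinucleotides, where the maintenance enzyme Dnmt1 with its partner Uhrf1 copies it after replication and Dnmt3a and Dnmt3b add it anew. CpG-dense promoters are mostly free of it, CpG-poor DNA mostly carries it, and imprinted control regions carry it on one parental allele. Blocking Mek1/2 in ESCs, as 2i/L does, is known for a genome-wide loss. Src and protein kinase C inhibition are other ways to keep ESCs undifferentiated, and comparing them asks whether 2 media that spare Mek1/2 leave the same methylome.

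Methylation was read by reduced representation bisulfite sequencing (RRBS), which samples CpG-rich fragments. The 4 libraries held 16087433 (PKCi/L J-34) to 22432470 (PKCi/L J-35) CpG reads, counting a read once for every CpG it covers. In all 4 libraries 881969 autosomal CpGs had at least 5 reads. They fell into 75544 tiles, windows of 1000 bp with at least 3 such CpGs. The median tile had 5 CpGs and 58 to 75 reads per library. The level of a tile is its methylated reads as a percentage of its reads, and differences between levels are in percentage points, PKCi/L minus a2i/L.

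Promoter windows were located through the spacing of their CpGs, and 4 of them carry the gene results. They are printed 5′ to 3′ along the gene, from 250 bases before the start site to 50 bases after it, with every CG in capitals. Hormad1 codes for a protein of the meiotic chromosome axis and is shown because its promoter differed between the media by nearly the same amount in both lines. Plagl1 codes for a zinc finger protein and is imprinted. Zrsr1, also imprinted, is a splicing factor gene that lies within an intron of Commd1, which codes for a copper metabolism protein. The Commd1 window is at a start placed 861 bp from that of Zrsr1 on the opposite strand. It may not be the start of the transcript that holds Zrsr1. The last 3 are shown because the lines differed there within a medium. The sequences are RefSeq's, build GRCm38.p6, and the positions are those of the CpGs in the deposited files, build mm9: Hormad1 at chr3:95363349-95363648 (plus strand, 24 CG, 20 measured), Plagl1 at chr10:12810388-12810687 (plus strand, 26 CG, 9 measured), Zrsr1 at chr11:22871755-22872054 (plus strand, 10 CG, 7 measured) and Commd1 at chr11:22872817-22873116 (minus strand, 17 CG, 11 measured).
Hormad1: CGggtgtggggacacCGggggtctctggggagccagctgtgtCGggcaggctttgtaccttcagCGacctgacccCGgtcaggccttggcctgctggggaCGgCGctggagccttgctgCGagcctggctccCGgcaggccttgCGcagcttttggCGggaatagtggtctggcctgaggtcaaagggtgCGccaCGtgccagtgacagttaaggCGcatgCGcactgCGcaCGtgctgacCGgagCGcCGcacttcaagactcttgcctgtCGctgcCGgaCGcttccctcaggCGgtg
Plagl1: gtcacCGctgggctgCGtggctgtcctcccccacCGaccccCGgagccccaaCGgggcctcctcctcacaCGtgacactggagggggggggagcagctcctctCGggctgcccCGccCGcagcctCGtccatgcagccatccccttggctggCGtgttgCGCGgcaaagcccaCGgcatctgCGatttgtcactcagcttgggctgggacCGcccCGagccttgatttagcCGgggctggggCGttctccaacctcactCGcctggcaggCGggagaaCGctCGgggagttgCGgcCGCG
Zrsr1: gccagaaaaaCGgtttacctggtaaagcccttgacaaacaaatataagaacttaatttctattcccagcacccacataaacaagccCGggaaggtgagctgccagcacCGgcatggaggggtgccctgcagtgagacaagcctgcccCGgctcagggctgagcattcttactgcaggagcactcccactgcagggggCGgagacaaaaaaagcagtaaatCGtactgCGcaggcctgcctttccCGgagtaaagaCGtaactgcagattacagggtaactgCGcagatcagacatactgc
Commd1: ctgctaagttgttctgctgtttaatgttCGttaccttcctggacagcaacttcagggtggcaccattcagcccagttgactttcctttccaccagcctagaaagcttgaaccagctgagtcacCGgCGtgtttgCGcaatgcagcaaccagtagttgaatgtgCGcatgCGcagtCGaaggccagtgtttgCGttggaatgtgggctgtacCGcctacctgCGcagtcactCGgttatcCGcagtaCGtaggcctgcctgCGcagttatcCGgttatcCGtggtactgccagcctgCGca

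The media did not differ in overall methylation beyond the spread between the lines. The mean over CpGs was 27.0% with a2i/L J-34 and 27.3% with a2i/L J-35. It was 26.8% with PKCi/L J-34 and 27.8% with PKCi/L J-35, so the PKCi/L libraries lay on either side of both a2i/L libraries. The group means were 27.1% ± 0.213 with a2i/L and 27.3% ± 0.649 with PKCi/L (SD, n = 2 each), a difference of 0.161 points (exact two-sided permutation p = 1, where 2 against 2 cannot go below 0.333). Within J-34 the difference was -0.147 points and within J-35 it was 0.469. Chromosome X, which a male line has once, gave the same picture with 23.5% and 23.9% with a2i/L and 23.6% and 24.0% with PKCi/L over 9066 CpGs. The direction depended on the measure. When reads rather than CpGs were given equal weight, the share of methylated reads was 22.37% and 23.01% with a2i/L and 21.42% and 20.32% with PKCi/L, groups that did not overlap, with a difference of -1.82 points (exact permutation p = 0.333). The 8775 most deeply read CpGs had 20.2% and 23.7% with a2i/L and 17.4% and 15.4% with PKCi/L, and without them the difference in shares was -1.37 points.

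CpG density separated the methylated from the unmethylated part of the measured genome in both media alike. Tiles of 3 to 9 CpGs (56775 tiles) had 63.6% ± 0.403 with a2i/L and 63.9% ± 1.44 with PKCi/L. Tiles of 10 to 29 CpGs (11982 tiles) had 10.0% ± 0.347 and 9.90% ± 0.387, and tiles of 30 or more CpGs (6787 tiles) had 0.904% ± 0.0369 and 0.934% ± 0.0548 (SD, n = 2 each). These differences of 0.303, -0.0919 and 0.0303 points were smaller than the spread between the lines (exact permutation p = 1, 0.667 and 0.667). Within J-34 and J-35 they were -0.430 and 1.04 points for 3 to 9 CpGs, -0.120 and -0.0634 for 10 to 29, and 0.0176 and 0.0430 for 30 or more. The last 2 classes thus had the same direction in both lines, where an exact two-sided sign-flip test of 2 pairs gives p = 0.5, the smallest it can give. Without PKCi/L J-35 the difference of tiles of 3 to 9 CpGs was -0.714 points.

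Below these similar averages, tiles differed between the media in the same direction in both lines. The difference in J-34 and the difference in J-35, which share no library, had a correlation of 0.363 across the 75544 tiles (Pearson's r, a description across tiles, which are not independent replicates). The difference between the lines in a2i/L and that in PKCi/L, which likewise share no library, had a correlation of 0.0171. Among the 22200 tiles with at least 100 reads in every library the medium differences had r = 0.600, and the line differences 0.109. The SD of the medium difference was 8.87 points in J-34 and 8.74 in J-35, against 6.27 and 5.74 from counting alone. For the line difference it was 6.87 points in a2i/L and 7.29 with PKCi/L, against 5.87 and 6.15 from counting. Counting here treats every CpG read as separate, although CpGs on one fragment share their molecules, so the true counting error is larger.

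**Figure D1:**
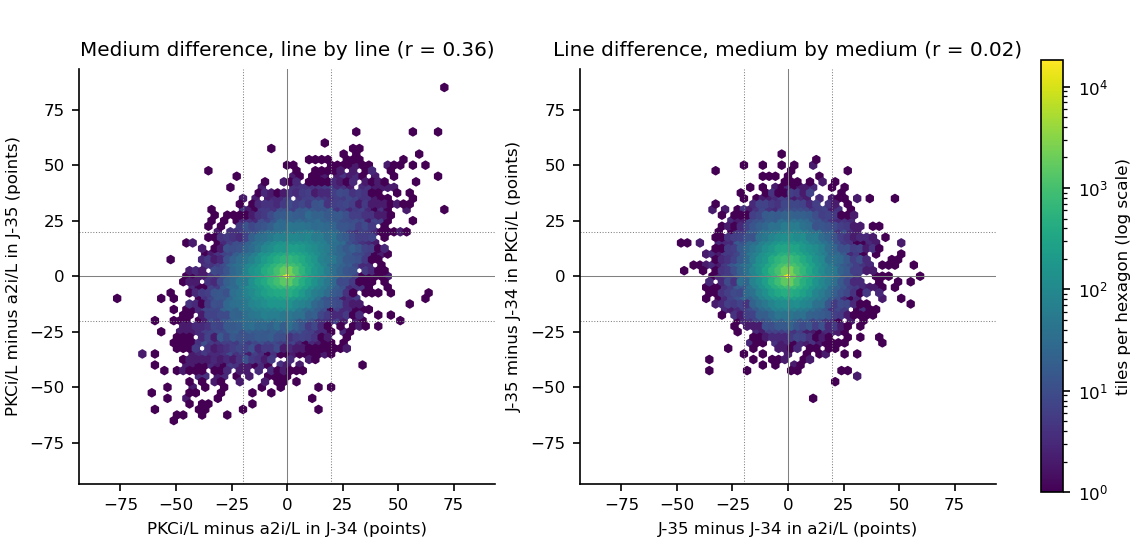
Tile differences in percentage points, shown as hexagons coloured by the number of tiles on a log scale. The left panel sets PKCi/L minus a2i/L in J-34 (x) against the same in J-35 (y), where r is 0.363 and the cloud leans along the diagonal. The right panel sets J-35 minus J-34 with a2i/L (x) against the same in PKCi/L (y), where r is 0.0171 and the cloud is round. Dotted lines mark 20 points.

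By size, 529 tiles were at least 20 points higher in PKCi/L in both lines (0.7% of all tiles) and 496 were at least 20 points lower in both (0.657%). In 56 tiles the lines passed 20 points in opposite directions. The same rule applied to the lines found 87 tiles at least 20 points apart in the same direction in both media (81 higher and 6 lower in J-35) and 63 in opposite directions. Leaving a library out is not possible for these counts, since each line has 1 library per medium. Within a single line, 1669 tiles were at least 20 points higher and 1923 lower in J-34, and 1983 higher and 1484 lower in J-35. Of the tiles that differed in both lines, 518 of the 529 and 465 of the 496 had 3 to 9 CpGs, as did 56775 of all 75544 tiles. These were 0.912% and 0.819% of that class, against 0.7% and 0.657% of all tiles. No tile of 30 or more CpGs was among them, a class whose mean levels of 0.904% with a2i/L and 0.934% with PKCi/L leave little room to fall by 20 points.

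The test across all tiles called none of these differences. With limma on 2 against 2 libraries, 0 of 75544 tiles were higher and 0 lower (0% each) at a Benjamini-Hochberg adjusted p under 0.05 and 20 points. The smallest adjusted p was 0.244, and 6852 tiles (9.07%) had an unadjusted p under 0.05, 3812 of them higher and 3039 lower. With cell line as a block it also called 0 tiles, with 6984 at an unadjusted p under 0.05. Other estimates of the spread did call tiles. A fit that took the spread from 21 libraries of 8 ESC groups called 35 tiles higher and 23 lower of 45622 (0.0767% and 0.0504%). A quasi-binomial model of the reads, with dispersions shrunken across tiles, called 292 higher and 328 lower of 75544 (0.387% and 0.434%), and 2 higher and 0 lower for J-35 against J-34, where limma called 0 and had 3959 tiles (5.24%) at an unadjusted p under 0.05. Of the tiles this model called for the media, 247 of 292 and 274 of 328 were at least 20 points apart in both lines. They make up 46.7% of the 529 and 55.2% of the 496. Of the 58 tiles called with the spread of 21 libraries, the quasi-binomial model called 54 in the same direction and 49 were 20 points apart in both lines.

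The tiles that differed in both lines were most frequent at middle levels in serum. Where S/L p20 had 30 to 50%, 3.01% of tiles were in the set higher in PKCi/L and 3.32% in the set lower in PKCi/L. Where S/L p20 had 10 to 30%, the shares were 2.51% and 3.15%. Where it had 50 to 70% they were 1.55% and 0.736%. Where it had 0 to 10% they were 0.105% and 0.0969%, and at 70 to 100% they were 0.130% and 0.0386%. Over all 62964 tiles measured in S/L p20 the shares were 0.677% and 0.637%. Tiles near the low end of the scale have little room to fall, and those near the high end little room to rise. By itself the rule that chose the sets thus favours middle levels, and how far was not tested.

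The 2 sets differed in which medium stood apart from serum at p20. The 529 higher tiles averaged 31.1% and 33.9% with a2i/L and 61.6% and 65.0% with PKCi/L (J-34, then J-35), values fixed by how the tiles were chosen. At the 426 of them measured in all 3 S/L p20 libraries, serum had 38.0% ± 1.75 (SD, n = 3). Serum thus lay nearer to a2i/L: the median tile was -6.64 points from serum in a2i/L and 23.3 points in PKCi/L, and PKCi/L was at least 20 points above serum at 245 tiles (57.5%, against 9.17% of all tiles). In this set a2i/L was at least 20 points below serum at 73 tiles (17.1%, against 0.373% of all tiles) and as far above it at 20. The 496 lower tiles averaged 67.5% and 69.8% with a2i/L and 36.9% and 39.4% with PKCi/L. Serum had 32.3% ± 1.23 (SD, n = 3) at the 401 of them measured there, near PKCi/L: the median tile was 35.7 points above serum in a2i/L and 5.57 with PKCi/L, and a2i/L was at least 20 points above serum at 364 (90.8%, against 9.87% of all tiles). PKCi/L was as far above serum at 49 of the 401 (12.2%, against 9.17%). Over all 62964 tiles measured in serum, the medians were 2.33 points in a2i/L and 2.97 with PKCi/L. The rule that chose the sets holds the media at least 20 points apart. By itself it thus raises the shares at least 20 points from serum over those of all tiles, and how far was not tested. In both sets the medium with the higher level exceeded serum at the median tile. The other medium was below serum at the median tile of the higher set and above it at that of the lower set. All these serum values are from S/L p20. In S/L p10 the higher set had 50.3% ± 0.192 (329 tiles) and the lower set 45.7% ± 1.61 (345 tiles, SD, n = 3 each). Beside the single p10 libraries, this was near PKCi/L in the higher set (48.5%, with 18.4% in a2i/L). In the lower set it was nearer to a2i/L (42.0%, with 30.6% in PKCi/L). Which medium stood apart from serum thus differed between the p20 and the p10 libraries. At p10 each medium has 1 library from a different line, the tiles measured differ, and the sets were chosen at p20. Passage cannot be told apart from these.

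The same tiles had low levels in 2i/L. The higher set had 8.39% ± 2.52 and the lower set 14.7% ± 4.42 in 2i/L p20 (SD, n = 3 each), against 14.5% ± 4.78 over all tiles. After the return to serum they had 48.6% ± 0.511 and 45.3% ± 1.63 at p23 (SD, n = 3 each), and 54.9% ± 0.236 and 53.7% ± 5.19 at p30 (SD, n = 2 each). The S/L p20 libraries list fewer CpGs (1606614 to 1614139) than the 4 libraries compared here (1709717 to 1952447), and the S/L p10 libraries fewer still (1313780 to 1331760). They thus come from other coverage profiles, whose part in the comparisons with serum was not tested.

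**Figure D2:**
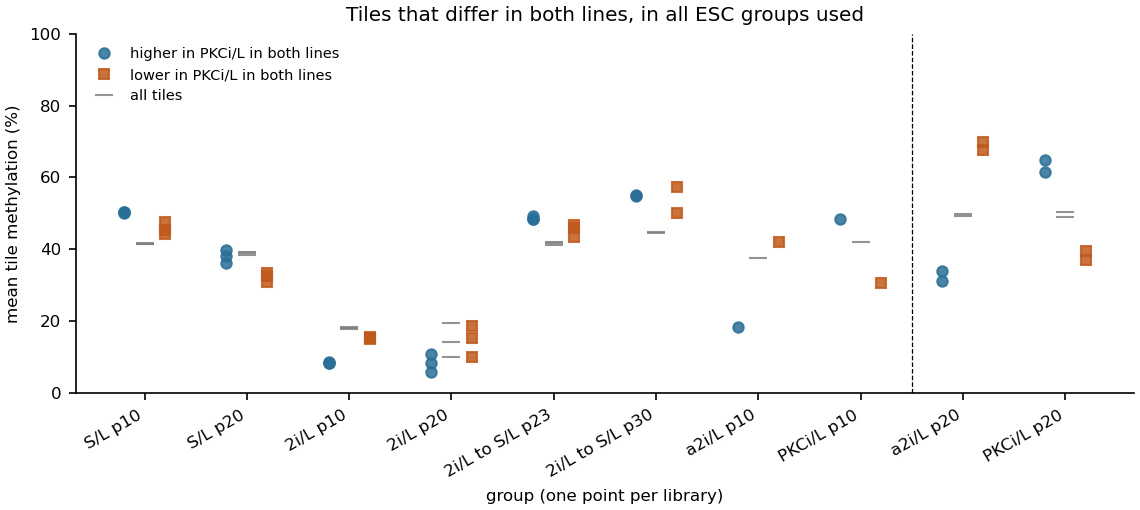
Mean tile methylation (%, y) in each library (points) of each ESC group (x) for the 529 tiles higher in PKCi/L in both lines, the 496 lower ones, and all tiles (grey bars). Right of the dashed line are the 4 libraries that chose the tiles. S/L p20 at 38.0% and 32.3% lies near the lower of the media in each set, and both 2i/L groups lie lowest, with 2i/L p20 at 8.39% and 14.7%.

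The p10 libraries, which played no part in choosing the tiles, differed in the same direction. At p10 the mean over 859123 CpGs was 25.28% with a2i/L (J-34) and 29.02% with PKCi/L (J-35), so PKCi/L was generally higher: over 61172 tiles the median difference was 1.64 points, with 69.3% of tiles above 0, 9.78% at least 20 points higher and 0.665% at least 20 points lower. The set higher at p20 had a median difference of 29.3 points at p10 (quartiles 18.7 and 40.6), with 372 of 381 measured tiles above 0 and 277 (72.7%) at least 20 points higher. The set lower at p20 had a median of -12.8 points (quartiles -20.9 and -2.87), with 315 of 386 tiles below 0 and 103 (26.7%) at least 20 points lower. The 35 measured tiles whose differences at p20 were opposite in the lines had a median of 8.72 points. Medium and line cannot be told apart at p10, where each medium has 1 library from a different line.

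Tile means at p20 were above those at p10 in each medium, in both sets and over all tiles. The p10 means cover fewer tiles, so a change with passage cannot be told apart from a change of tiles. All tiles had 37.5% at p10 (63966 tiles) and 49.5% ± 0.361 at p20 in a2i/L, and 42.1% (61865 tiles) and 49.7% ± 1.15 in PKCi/L. In a2i/L the higher set had 18.4% at p10 (416 tiles) and 32.5% ± 1.98 at p20, and the lower set 42.0% (410 tiles) and 68.7% ± 1.60. In PKCi/L they had 48.5% (389 tiles) and 63.3% ± 2.40, and 30.6% (392 tiles) and 38.2% ± 1.71 (SD, n = 2 at p20, 1 library at p10). The mean over CpGs, again from unlike sets of CpGs, was 25.28% at p10 and 27.1% at p20 in a2i/L. In PKCi/L it went the other way, with 29.02% at p10 and 27.3% at p20. No test across passages was made, since the p10 libraries list fewer CpGs (1601100 and 1658437) than those at p20.

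**Figure D3:**
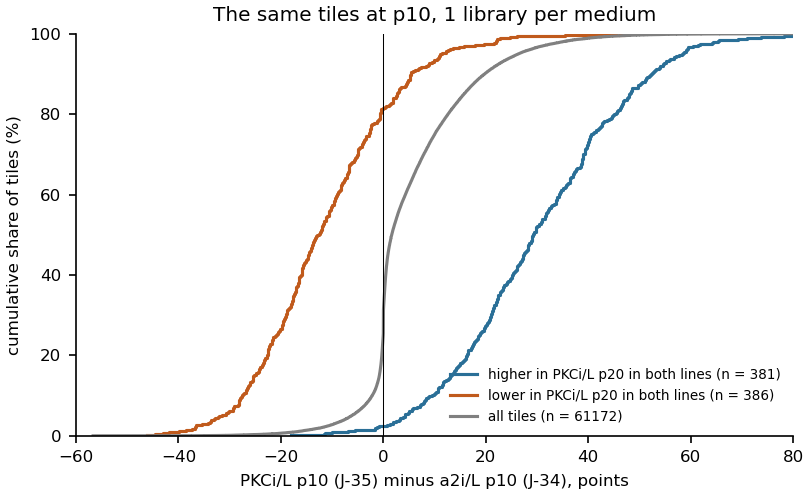
Cumulative share of tiles (%, y) by their difference at p10, PKCi/L (J-35) minus a2i/L (J-34) in percentage points (x). The curve of the set higher at p20 (381 tiles) lies right of that of all 61172 tiles with a median of 29.3 points, and the curve of the set lower at p20 (386 tiles) lies left of it with a median of -12.8 points.

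Neighbouring DNA leaned the same way. Of 93 measured tiles next to a tile of the higher set and outside both sets, 72 (77.4%) were above 0 with a median of 3.48 points. Of 134 next to the lower set, 110 (82.1%) were below 0 with a median of -7.92 points. Over all tiles 51.7% were above 0 and 46.9% below. The neighbours were measured in the same 4 libraries that chose the sets and can share fragments with them at a border, so they are no independent check. The sets were spread over all autosomes: the higher set took 0.486% of the tiles of chromosome 12 at the least and 1.18% of those of chromosome 16 at the most, and the lower set 0.386% on chromosome 9 and 0.933% on chromosome 17.

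Both sets lay near the CpG-rich start sites that could be located less often than all tiles did. Of 15961 RefSeq promoter sequences with at least 8 CG, 8985 were placed at 1 site. Within 1 kb of such a start lay 4 of the 529 higher tiles (0.756%) and 2 of the 496 lower tiles (0.403%), against 14.9% of all tiles. Within 5 kb lay 17 (3.21%) and 53 (10.7%), against 20.4% of all tiles. These shares were not matched for CpG count or level. A difference of 20 points needs a library at 20% or more, which 98 of 7369 placed and measured promoters reached, so the rule itself keeps most starts out of the sets. Genes whose promoters could not be placed, among them those with few CpGs, may lie nearer.

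The largest differences reached 50 points and more. The 10 largest in each direction were taken from the tiles called by the quasi-binomial model whose libraries did not overlap, because limma called none, and their limma adjusted p ran from 0.244 to 0.415. The largest difference upward was at chr13:44304666-44304737 (3 CpGs, at least 32 reads per library), with 7.69% and 4.55% with a2i/L and 78.1% and 88.6% with PKCi/L (J-34, then J-35). All 3 CpGs had at most 15.4% in either a2i/L library and at least 66.7% in either PKCi/L library. The difference of 77.2 points corresponded to 5.71 ± 0.584 (SE) on the log2 ratio scale (limma adjusted p = 0.244, quasi-binomial adjusted p = 0.00117). The PKCi/L p10 library had 73.5% there (Wilson 95% interval 56.9 to 85.4%), and S/L p20 had 24.4% ± 8.41 (SD, n = 3). Serum was not low throughout: S/L p10 averaged 70.8% and the p30 cells 67.7% there, nearer to PKCi/L.

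The next lay 2242 bp upstream of the start of Dbx1, a homeobox gene of neural progenitors, at chr7:56894397-56894497 (5 CpGs, at least 53 reads). It had 8.20% and 18.9% with a2i/L and 77.6% and 83.7% with PKCi/L (limma adjusted p = 0.398, quasi-binomial adjusted p = 0.00101). The media were fully apart at each of its 5 CpGs. Here the p10 libraries were closer together, with 17.4% with a2i/L (Wilson 95% interval 9.09 to 30.7%) and 30.2% with PKCi/L (18.6 to 45.1%), and S/L p20 had 15.4% ± 9.14 (SD, n = 3). The one with the most CpGs among the 10 was at chr10:119869266-119869906 (11 CpGs, at least 128 reads), with 17.1% and 28.8% with a2i/L and 73.1% and 79.7% with PKCi/L. It had 3.85% with a2i/L p10 (1.65 to 8.69%) and 63.0% with PKCi/L p10 (53.6 to 71.5%). The region at chr1:154899740-154899863 (6 CpGs, at least 75 reads) had 26.2% and 25.5% with a2i/L and 78.7% and 76.8% with PKCi/L, the closest agreement between lines among the 10.

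The largest difference downward was at chr2:10286472-10286872 (3 CpGs, at least 20 reads), with 80% and 76.2% with a2i/L and 21.2% and 15.6% with PKCi/L (limma adjusted p = 0.398, quasi-binomial adjusted p = 0.0122). S/L p20 had 72.3% ± 17.4 there (SD over the 2 libraries with enough reads), nearer to a2i/L. The second, at chr8:89383806-89383936 (8 CpGs, at least 89 reads), had 69.0% and 85.6% with a2i/L and 16.9% and 20.95% with PKCi/L (quasi-binomial adjusted p = 0.00189). At each of its 8 CpGs both PKCi/L libraries were below both a2i/L libraries. S/L p20 had 20.6% ± 4.36 (SD, n = 3), nearer to PKCi/L, and the p10 libraries had 30.1% with a2i/L (Wilson 95% interval 21.7 to 40.1%) and 9.90% with PKCi/L (5.47 to 17.3%). Other regions of this list had placed genes nearby. At chr11:120489546-120489997, 3443 bp upstream of Sirt7, a nuclear deacylase gene, a2i/L had 64.4% and 81.3% and PKCi/L 24.1% and 21.3%. At chr1:155750184-155750252, 3312 bp upstream of Gm38440, a2i/L had 73.8% and 70.7% and PKCi/L 30.6% and 13.8%. S/L p20 had 17.2% ± 7.64 and 12.95% ± 10.6 at these regions (SD, n = 3 each), nearer to PKCi/L at both.

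Of the 20 regions, 16 were measured in both p10 libraries. All 7 higher and all 9 lower regions among them had the same direction at p10, where 69.3% of all tiles were higher in PKCi/L. For 6 of the 7 and 6 of the 9 the Wilson 95% intervals of the libraries did not overlap. The share of all tiles with intervals apart was not computed. Of all tiles at p10, 9.78% were at least 20 points higher in PKCi/L and 0.665% at least 20 points lower, between libraries of different lines. The Wilson intervals cover counting error only, and reads were amplified without molecular identifiers.

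**Figure D4:**
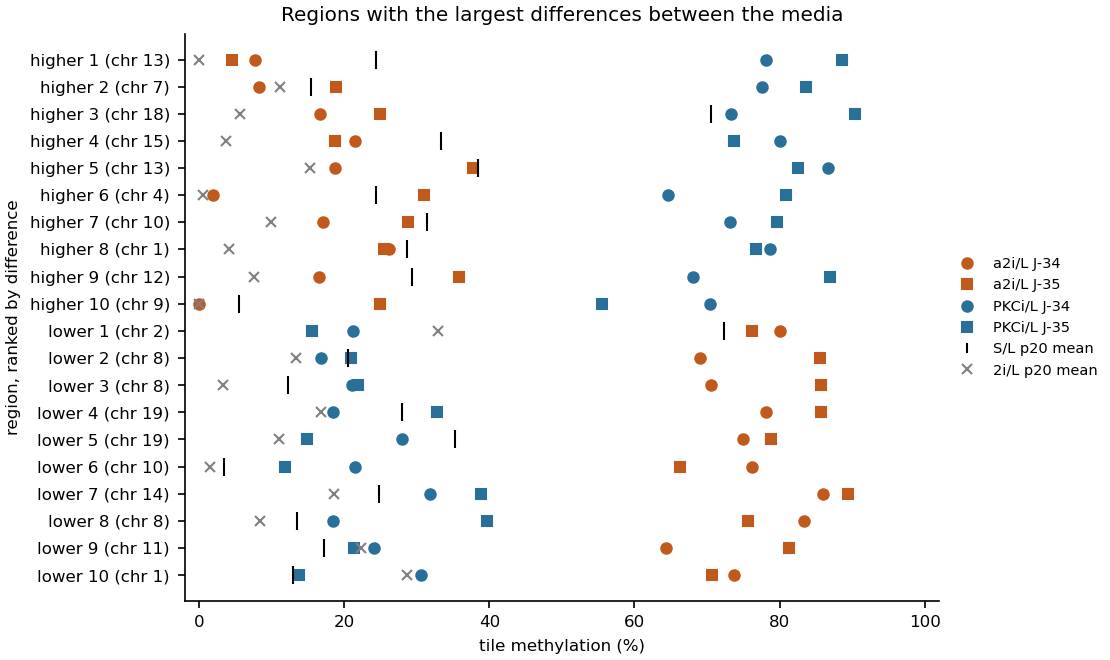
Tile methylation (%, x) of the 10 largest differences upward and the 10 largest downward in PKCi/L against a2i/L (y, ranked) in the 4 libraries (colour for medium, circle for J-34, square for J-35), with the means of S/L p20 (bar) and 2i/L p20 (cross). The libraries do not overlap between media, by the rule that chose the regions. S/L p20 is high in the third upward region at 70.6% and the first downward region at 72.3% and lies at 38.4% or less in the others.

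Within 5 kb of a placed start, 10 higher and 29 lower tiles were called by the quasi-binomial model and 20 points apart in both lines. They were out of 15400 tiles at that distance. Over all 75544 tiles the same rule took 247 higher and 274 lower, a larger share in both directions. The genes below were picked after their values were seen. The higher tiles belonged to 10 genes, with 7 tiles inside the gene's length downstream of the start. They were Dbx1, Runx3, Txnrd2, Mrap2, Smkr-ps, Bhmt2, Tmem181a, Nkx1-2, Irx4 and Gm31816, in the order of their differences, which fell from 67.1 points at Dbx1 to 24.5 at Gm31816. Runx3, a transcription factor gene of neurons and T cells, had 22.6% and 16.7% with a2i/L and 54.3% and 71.4% with PKCi/L at a tile 2309 bp downstream of its start (3 CpGs). Txnrd2, the gene of the mitochondrial thioredoxin reductase, had 23.8% and 35% with a2i/L and 67.7% and 64.8% with PKCi/L at 1340 bp upstream (3 CpGs). Mrap2, which codes for an accessory protein of melanocortin receptors, had 10% and 11.5% with a2i/L and 47.4% and 41.2% with PKCi/L at 1089 bp downstream (4 CpGs). S/L p20 had 44.6% ± 5.43 at the tile of Runx3, above both a2i/L libraries, and 11.01% ± 4.29 at that of Mrap2, near a2i/L (SD, n = 3 each).

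The lower tiles belonged to 27 genes, with 20 tiles inside the gene's length. In Rcor2, which codes for a corepressor of the Lsd1 histone demethylase complex, a tile 3784 bp downstream of the start (3 CpGs) had 75% and 78.8% with a2i/L and 28.0% and 14.8% with PKCi/L. In Tob1, an antiproliferative gene, a tile 2619 bp downstream (7 CpGs) had 65.8% and 68.2% with a2i/L and 20.8% and 27.0% with PKCi/L. Near Crmp1, a neuronal phosphoprotein gene, a tile 1440 bp upstream had 15 CpGs, the most of all 39 tiles, with 49.5% and 48.2% with a2i/L and 15.03% and 20.9% with PKCi/L. In Cdk9, the kinase that releases paused RNA polymerase II, a tile 3016 bp downstream (11 CpGs) had 76.7% and 76.8% against 50% and 49.4%. The lines agreed within 7 points in each medium at Tob1, Crmp1 and Cdk9. In S/L p20 these had 38.8% ± 9.01, 18.6% ± 1.86 and 42.7% ± 3.82 (SD, n = 3 each). Eml2, a microtubule gene, and Sirt7 each had 2 lower tiles. Those of Eml2 lay next to each other 4567 and 4490 bp upstream of its start and had 62.5% and 52.6%, and 60.6% and 53.3%, with a2i/L. In PKCi/L they had 28.8% and 18.9%, and 29.5% and 21.5%. The quasi-binomial adjusted p was 0.0477 at Runx3, 0.0260 at Txnrd2, 0.0152 at Mrap2 and 0.00117 at Tob1.

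Promoters themselves differed little. Of 7369 genes with a placed promoter window of 300 bases and at least 3 measured CpGs, 98 reached 20% in any of the 4 libraries. No promoter was 20 points apart in both lines, and 4 were 10 points apart in both in the same direction. Hormad1 was the lowest of these in PKCi/L relative to a2i/L. Its promoter had 40.1% and 48.5% with a2i/L and 21.1% and 29.8% with PKCi/L (J-34, then J-35; 20 CpGs, at least 322 reads). The difference was -18.9 points in J-34 and -18.7 in J-35, and the media did not overlap. Of the 20 CpGs in the printed sequence that were measured, 16 were lower in PKCi/L in both lines and 0 were higher in both, though neighbouring CpGs share reads and are not separate observations. The tile of its start had a limma adjusted p of 0.588 and a quasi-binomial adjusted p of 0.0358 but did not reach 20 points.

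At Hormad1 a2i/L stood above the other media. S/L p20 had 12.2% ± 1.55, S/L p10 18.9% ± 3.00 and 2i/L p20 4.51% ± 2.59 (SD, n = 3 each), and p30 had 31.2% ± 6.60 (SD, n = 2). At p10 the media were not apart, with 16.3% with a2i/L (Wilson 95% interval 12.8 to 20.5%) and 17.4% with PKCi/L (13.8 to 21.8%). Atcayos was also lower in PKCi/L, with 30.7% and 39.0% with a2i/L and 17.6% and 27.0% with PKCi/L (8 CpGs). Higher in PKCi/L were Col6a5, a collagen VI chain gene, with 28.99% and 36.6% with a2i/L and 59.6% and 51.2% with PKCi/L (5 CpGs), and Gm10046 with 20% and 31.3% against 40.7% and 50% (4 CpGs). Col6a5 kept its direction at p10, with 29.8% with a2i/L (21.5 to 39.7%) and 53.9% with PKCi/L (42.8 to 64.7%). The tiles of Atcayos and Gm10046 were not called by either model, and the start of Col6a5 lay in no measured tile.

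The gene lists held no other promoter of this size. Of the 40 germline genes listed, 15 were placed and 6 reached 20%; their median difference was -0.773 points, against 0.00175 over all 7369 promoters. Sycp1, of the synaptonemal complex, had 68.3% and 61.4% with a2i/L and 60.1% and 61.4% with PKCi/L. Rbm46, an RNA-binding protein gene of meiosis, had 7.04% and 5.98% with a2i/L and 6.85% and 13.95% with PKCi/L. At both the libraries overlapped between media. Gpat2, an acyltransferase gene of the testis, had the largest difference upward, with 8.33% and 9.38% with a2i/L and 13.1% and 19.7% with PKCi/L.

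The promoters of genes that set the ESC state or the methylation machinery were nearly free of methylation in all 4 libraries. Of 32 pluripotency genes 9 were placed, with a median difference of -0.0252 points, and of 26 methylation machinery genes 14, with -0.0131 points. The 4 pluripotency genes with the largest differences were Fgf4, Klf4, Klf2 and Stat3, and none passed 1.37% in any library. Dnmt3b, a de novo methyltransferase, had 0.270 to 0.974%, and the demethylation genes Tet2 and Tet3 and the deubiquitinase gene Usp7 had at most 1.45%. For protein kinase C, Src, Wnt and ERK signalling 22 of 47 genes were placed (median difference -0.0367 points). The largest differences among them were at Braf, a kinase of the ERK pathway, with 2.04% and 1.45% with a2i/L and 4.11% and 3.33% with PKCi/L, and at Dusp6, an ERK phosphatase, which had at most 1.64%. The kinase genes Src and Yes1, of the Src family, had at most 2.24%. For lineage genes 8 of 33 were placed (-0.121 points), of which Tfap2a reached 23.9% with a2i/L J-35 and had 13.6 to 16.9% in the other libraries, while Foxa2, Hoxd13 and Fgf5 had at most 2.17%. Of 20 fibroblast genes, which feeder cells would bring, 3 were placed (-0.0866 points): Twist2, Vim and Snai1, with at most 1.57%. None of these was called by limma, where 0% of all tiles were called, and promoter methylation near 0 says nothing on expression, which was not measured.

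At 3 imprinted promoters the a2i/L libraries of J-34 and J-35 were far apart. Of 44 imprinted genes 14 were placed, with a median difference of 0.198 points, and 4 reached 20%. Plagl1 had 7.44% with a2i/L J-34 but 36.3% with a2i/L J-35, 31.5% with PKCi/L J-34 and 36.7% with PKCi/L J-35. Zrsr1 had 9.43% with a2i/L J-34, 40.6% with a2i/L J-35, 20.95% with PKCi/L J-34 and 26.1% with PKCi/L J-35. Commd1, whose start is 861 bp from that of Zrsr1, had 3.49%, 37.1%, 9.22% and 17.6% in the same order. Zrsr1, outside the 4 largest differences of the list, was added after its values were seen because it lies within Commd1. Mkrn3, which is among those 4, had at most 2.94%. At Plagl1, Zrsr1 and Commd1 the a2i/L J-34 library was the lowest of the 4, and within a2i/L the J-35 library was above J-34 at 9 of 9, 7 of 7 and 11 of 11 CpGs. Neighbouring CpGs often share the same reads, so these CpGs are not separate observations. The starts of Zrsr1 and Commd1 lie in 1 tile and are not separate loci.

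Serum cells had more methylation at these promoters than a2i/L J-34. In S/L p20 Plagl1 had 47.2% ± 14.2, Zrsr1 35.05% ± 7.26 and Commd1 37.9% ± 6.09, and in 2i/L p20 they had 7.68% ± 6.92, 6.45% ± 4.92 and 8.44% ± 7.37 (SD, n = 3 each). The a2i/L J-34 library at p20 was within the spread of 2i/L p20 at all 3. The a2i/L library of the same line at p10 had 30.2% at Plagl1 (Wilson 95% interval 21.9 to 40.0%), 45.8% at Zrsr1 (37.8 to 54.0%) and 40.6% at Commd1 (33.5 to 48.1%). All 3 values at p10 were above those of a2i/L J-34 at p20. Mcts2, a further imprinted gene, had 36.9% and 35.1% with a2i/L and 22.5% and 37.3% with PKCi/L, against 10.1% ± 8.58 in S/L p20 (SD, n = 3). Its lowest value was in PKCi/L J-34, not in a2i/L J-34. The tiles of these starts had limma adjusted p of 0.827 to 0.918 for the medium.

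**Figure D5:**
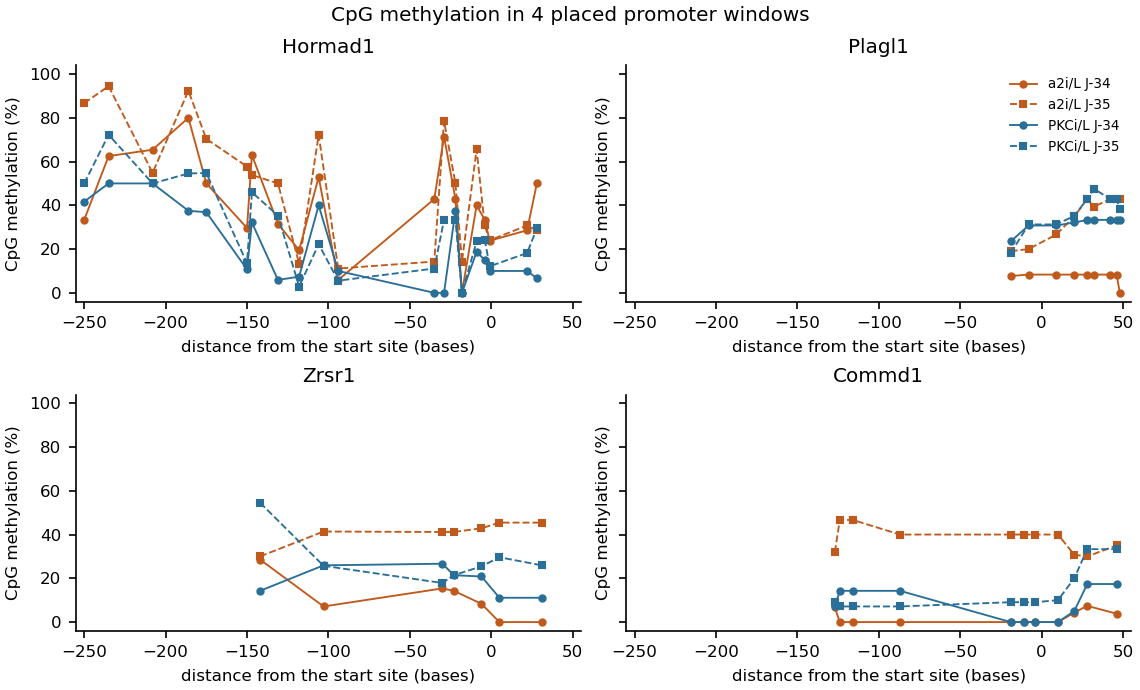
Methylation of single CpGs (%, y) by distance from the start site in bases (x) at the promoters of Hormad1, Plagl1, Zrsr1 and Commd1, with 1 line per library (colour for medium, solid circles for J-34, dashed squares for J-35). At Hormad1 both PKCi/L libraries lie below the a2i/L libraries at most CpGs. At the other 3 promoters a2i/L J-34 lies lowest at most CpGs, while a2i/L J-35 lies near 40%.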

How the data were processed

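CpG methylation was measured by RRBS. The aligner BSMAP 2.89 and the mouse build mm9 are named, per the submitters' processing notes, with read filters and the rate of bisulfite conversion not given in the sources used here. For each CpG, with both strands merged, the authors deposited 1 text value of methylated over total reads, with no normalization visible. Their second value, a score, was checked in the 23 files read and is the methylated share multiplied by 1000 with decimals dropped. Because the text value is no count column, count tools were not used.

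Autosomal CpGs with at least 5 reads in all 4 libraries were summed over tiles of 1000 bp with at least 3 CpGs. The main test was limma 3.58.1 (R 4.3.3), two-sided, on log2((methylated + 1)/(unmethylated + 1)), with Benjamini-Hochberg adjustment over all tiles. Calls required an adjusted p under 0.05 together with group means at least 20 points apart. Global and class levels were compared by exact permutation tests. Scripts were tested on simulated data. The replicates are the lines J-34 and J-35, grown in both media, which pairs the samples; the fit with cell line as a block is an alternative, as are other minima, tile sizes, offsets, thresholds, a spread from 21 libraries, a quasi-binomial model and leaving out each library. The sources do not say that libraries are separate experiments beyond the lines, so p-values measure only the spread between these samples.

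RefSeq promoters (300 bases, GRCm38.p6) were placed on the files' mm9 CpGs where the spacing of at least 8 CpGs, seen in at least 5 libraries, fitted 1 site of the gene's chromosome: 56.4% of 15961 sequences fitted, against 0.414% on another chromosome. Another 11 out of order with their neighbours were left out. No coordinate was converted between builds. Distances are to placed starts, and exons and introns were not assigned.

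Regions named are the 10 largest differences in each direction among called tiles whose libraries do not overlap, the first 3 given CpG by CpG; limma called none, so the tiles called by the quasi-binomial model were used. From each gene list the 4 members with the largest difference are named (all 3 where 3 were placed), and Zrsr1 beside them. Genes within 5 kb of a called tile were picked after their values were seen. The libraries, gene lists and rules were chosen with earlier results of these data known. Python 3.11.15, numpy 2.4.6, pandas 2.3.3, numba 0.67.0, scipy 1.17.1 and matplotlib 3.10.9 were used.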

Additional observations from a re-analysis of the deposited data

Results flagged for a closer look

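In each of these results J-34 and J-35 differed between the media in opposite directions, PKCi/L minus a2i/L. Each line has 1 library per medium, so the difference between the lines was not tested. The global level differed by -0.147 points in J-34 and by 0.469 in J-35. The promoter of Zrsr1 differed by 11.5 points in J-34 and -14.5 in J-35. That of Commd1, at a start placed 861 bp from that of Zrsr1, differed by 5.73 and -19.4. The promoter of Mcts2 differed by -14.4 points in J-34 and 2.18 in J-35. At Zrsr1 and Commd1 both the lowest and the highest of the 4 values were in a2i/L.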

How the results depend on the processing

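The 0 calls of limma in each direction held with a minimum of 10 reads, with 1 read per CpG and 20 per tile, an offset of 0.5, tiles of 500 bp, a threshold of 10 points, without the deepest CpGs, with a trended prior, without each library in turn (the lone library then being assumed to vary like the others) and with cell line as a replicate block. That block changed no call, and the paired global difference is the same 0.161 points. The spread from 21 libraries gave 35 tiles higher and 23 lower, and the quasi-binomial model 292 and 328, with 2 higher in J-35 than in J-34; the cause was not tested. As shares of methylated reads, the global difference turned to -1.82 points, that of tiles of 3 to 9 CpGs to -0.861 and that of tiles of 30 or more to -0.544. With 10 reads per CpG, tiles of 3 to 9 CpGs turned to -0.0966 points and those of 10 to 29 to 0.0386. Leaving out 1 library gave global differences of -0.298 (without PKCi/L J-35) to 0.620 points, -0.714 (without PKCi/L J-35) to 1.32 for 3 to 9 CpGs, -0.366 to 0.182 for 10 to 29 (0.154 without a2i/L J-35, 0.182 without PKCi/L J-34) and -0.00844 (without PKCi/L J-35) to 0.0690 for 30 or more.

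The following alternatives were chosen after seeing the data. Pairing by line left the differences of the CpG classes at 0.303, -0.0919 and 0.0303 points. Tiles 20 points higher and lower in both lines numbered 180 and 217 with 10 reads per CpG, of 38996 tiles, and 27 and 60 among the 22200 tiles of at least 100 reads, where fewer tiles are tested. The correlation of the differences of the lines was 0.450, 0.600, and 0.353 with 1 read per CpG. All 219 values of the 20 named regions under the alternatives kept their direction, which the choice of regions largely fixed in advance. They were chosen from these same 4 libraries for not overlapping between media, and alternatives such as another offset or model leave the levels unchanged.

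With 2 libraries a medium and 58 to 75 reads at the median tile, small differences at single tiles are not detectable. CpGs had to be covered in all 4 libraries, reads had no molecular identifiers, and CpGs on one fragment share their reads.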
